A study of Danio rerio with 3 samples.

Results

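The transcripts of zebrafish embryos injected with a control siRNA were compared with those of uninjected embryos. The comparison rests on 2 of the 3 arrays of the study, 1 for each group, and on 15502 of the 15617 probe sets, the 115 controls of the array maker being left out. Both groups were whole embryos at 24 hours post-fertilization (hpf), raised at 28 ± 0.5 °C and pooled as 400 embryos a group. All embryos came from artificial fertilisations collected within 5 minutes and were mixed across parents, the zygotes of the injected group each received 1 nL of control siRNA at 300 ng/µl within 30 minutes, and the other group received no injection. The sources used here do not give the strain, the sequence of the control siRNA or its target, if any. The remaining array came from embryos injected in the same way with an siRNA against PGRP-SC, a peptidoglycan recognition protein gene. Its signals are printed beside some genes as values only, because its embryos do not enter this comparison. These signals are not given for every gene, so those printed do not describe that array as a whole. The array does enter the floor and the ranking of a gene's probe sets, by mean signal over the 3 arrays. No group was injected with buffer alone, so the injection and the siRNA cannot be told apart, and neither can be told apart from the difference between any 2 pools and arrays.

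A control siRNA is a short double-stranded RNA designed not to match the gene under study, and embryos that receive it serve as the injected baseline of a knockdown experiment. Double-stranded siRNA is loaded into an Argonaute protein, which pairs its guide strand with RNAs and represses them, and longer double-stranded RNA can also be read by interferon sensors. At 24 hpf a zebrafish embryo has finished most of its segmentation, its trunk muscle contracts, primitive red cells begin to circulate, and the tail bud still adds cells at the posterior end. These tissues are described first.

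Each array gave 1 linear signal per probe set, already scaled so that the mean after trimming 2% at each tail was 500.1, and the median signals were 166.4 uninjected and 169.6 with control siRNA. A floor of 101.6, the 40th percentile of all signals of the 3 arrays, replaced lower signals, which were 39.7% and 39.9% of the probe sets. A ratio is the log2 of the control siRNA signal over the uninjected signal. Where 1 of the signals was under the floor the ratio is a bound, and where both were under it none was taken. Signals of a gene are given in the order uninjected, control siRNA. By these rules 8872 probe sets had a full ratio, 927 had a bound and 5703 had none. Markers of the labelled tissue were present: 9 of 12 marker genes were found by name, among them the fast myosin light chain gene mylpfa, the embryonic globin gene hbae3, with signals of 26406 and 18985, the neuronal gene elavl3 with 1514 and 939 and the epidermal keratin gene krt4 with 23079.6 and 21605. A second elavl3 probe set had 295 and 328, the other way. In these bulk samples, fewer cells of a type and less RNA per cell cannot be told apart.

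Features of the arrays themselves also differed. All 9 probe sets for the hybridization controls BioB, BioC, BioDn and CreX, bacterial and phage transcripts added at fixed amounts, were lower with control siRNA, with a geometric mean of 1678 against 2046, or -0.29 on the log2 scale. If the arrays were scaled to them, the median of all probe sets with a ratio would move from 0.016 to 0.29, so a ratio between -0.29 and 0 would change sign. Directions below are therefore relative to all genes as deposited. The array maker's control for the muscle actin acta1 had a ratio of 5′ to 3′ signal of 0.369 uninjected and 0.205 with control siRNA, while that for GAPDH had 0.350 and 0.347. Each group had 1 array, so no p-value, SE or interval was computed, and the number of arrays limits the precision of every value.

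Most transcripts were close in the 2 arrays. Of the 8872 probe sets above the floor in both, the median difference was 1.17-fold in either direction, and 95% differed by less than 1.71-fold. The 2-fold mark was reached upward, that is, with more signal in the control siRNA array, by 108 of the 9799 probe sets with a ratio, or 1.1%, and downward by 83, or 0.847%. That split was 360 higher and 33 lower under scaling to the hybridization controls. Above the floor in both arrays, the share at or beyond 2-fold was 3.21% for signals between 200 and 400 and 0.737% for signals over 3200. It was 1.29% for signals between the floor and 200, where the need for both to pass the floor limits the ratio. The plot of signals shows the band around equality and the named genes outside it.

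**Figure D1:**
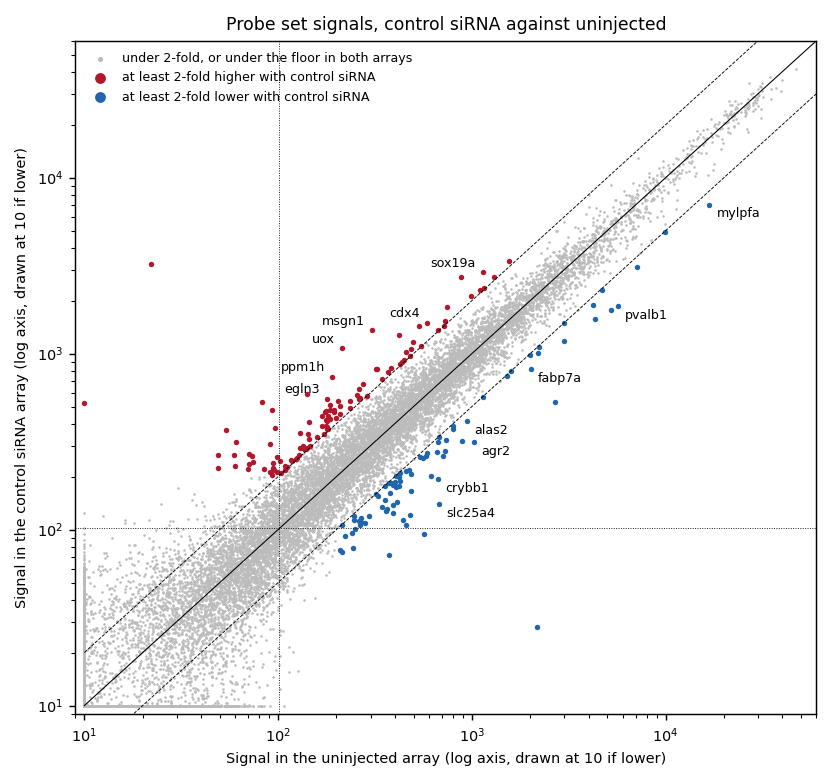
Signal of each of 15502 probe sets in the uninjected array (horizontal, log axis) and the control siRNA array (vertical, log axis), with signals under 10 drawn at 10. Dashed lines mark 2-fold differences, dotted lines the floor of 101.6; red points (108) are at least 2-fold higher and blue points (83) at least 2-fold lower with control siRNA.

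Several probe sets can measure 1 gene, and their agreement shows the error of a single ratio, though they share the RNA and the array. In 766 genes with 2 or more probe sets above the floor in both arrays, the ratios of the 2 strongest probe sets differed by a median of 0.27 on the log2 scale, or 1.21-fold. The 95th percentile of that difference was 1.91-fold. Of 16 such genes whose stronger probe set was at least 2-fold apart, the second probe set had the same direction in 13, reached 1.5-fold in 5 and 2-fold in 1. A 2-fold difference seen in 1 probe set was thus often smaller in another.

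**Figure D2:**
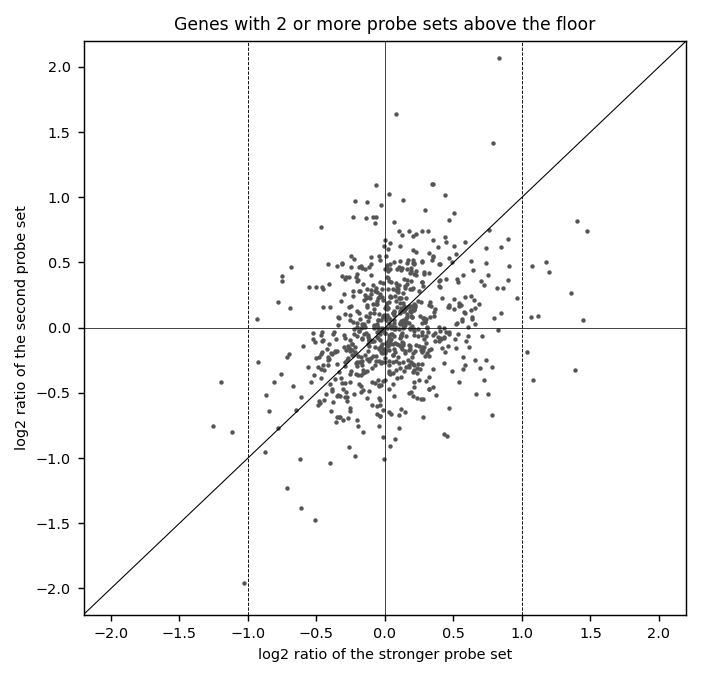
Log2 ratio of control siRNA over uninjected for the strongest (horizontal) and second strongest (vertical) probe set of 766 genes. Points on the diagonal have equal ratios, dashed lines mark 2-fold in the stronger probe set, and the differences from the diagonal have a median size of 0.27.

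With 1 probe set per gene, the one with the highest mean signal, 6462 of 8793 named genes had a ratio. Of these, 72 genes were at least 2-fold higher, or 1.11%, and 49 at least 2-fold lower, or 0.758%. At 1.5-fold the counts were 421 higher, or 6.52%, and 326 lower, or 5.04%. These shares are the background for the 59 gene lists described below. A gene can belong to several of these lists, so their results are not independent. Bounds make up 476 of the 6462 ratios. The floor fixes the direction of a bound, so counts above or below 0 are given for genes above the floor in both arrays. The background for these counts is 5986 named genes above the floor in both arrays, 3156 above 0 and 2830 below. By list median, genes of myogenic regulation, Hedgehog signalling, the tail bud, the notochord and the nucleolus stood among the highest, and genes of primitive red cells, skeletal muscle and the proteasome stood lowest.

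**Figure D3:**
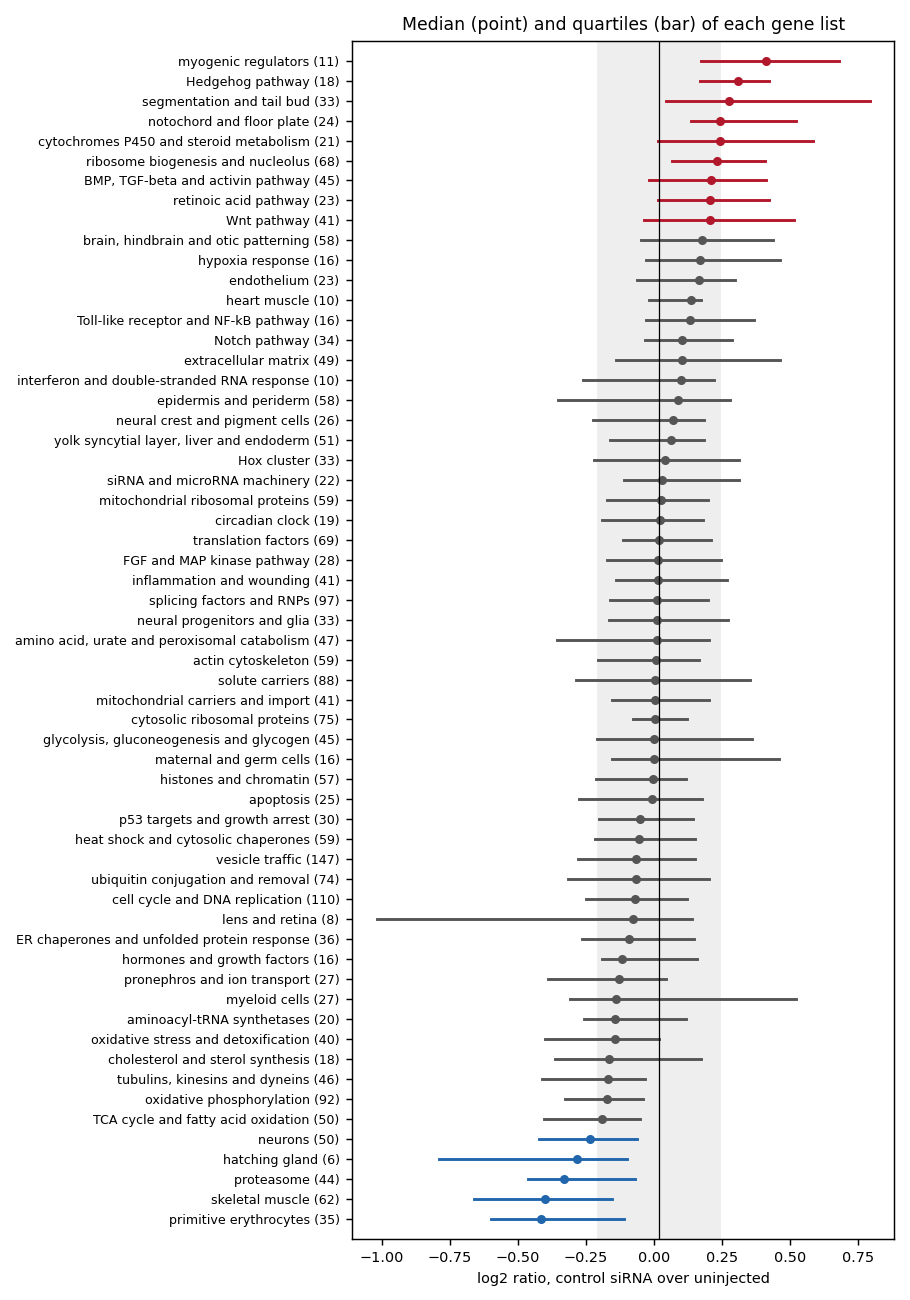
Median (point) and quartiles (bar) of the log2 ratio of control siRNA over uninjected for 59 gene lists, with the number of genes with a ratio in parentheses. The grey band and vertical line are the quartiles and the median of all 6462 genes; lists with medians of at least 0.2 are red, those at or under -0.2 blue, and under scaling to hybridization controls the neuron and hatching gland medians turn to 0.049 and 0.0024, as other medians between -0.29 and 0 also change sign.

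Genes of the tail bud and the unsegmented paraxial mesoderm, the source of the last somites, were higher with control siRNA. The segmentation and tail bud list had 33 genes with a ratio of 42 on the array. Of these, 2 were at least 2-fold higher and 0 lower, 11 were at least 1.5-fold higher and 1 lower, and the median log2 ratio was 0.28 against 0.017 for all genes. Over the alternatives other than scaling to the hybridization controls that median ranged from 0.19 (a floor at the 60th percentile) to 0.54 (no floor). The 28 genes above the floor in both arrays had 20 above 0 and 8 below. The largest difference of the list was in msgn1, a bHLH transcription factor of the unsegmented paraxial mesoderm, with signals of 305 and 1363 in the uninjected and control siRNA arrays, 4.46-fold higher. The PGRP-SC siRNA array had 4543. A weaker msgn1 probe set had 34.3, 115 and 68.0 in the same order, above the floor with control siRNA alone. The posterior homeobox gene cdx4 had 589 and 1497, 2.54-fold higher, and the PGRP-SC siRNA array had 4807.

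The other T-box and posterior transcription factors of the list lay on the same side of 0. All 5 of the T-box, cdx and msgn1 genes above the floor in both arrays were above 0, with a median of 0.79. Besides msgn1 and cdx4, tbx6, a T-box factor of presomitic mesoderm, had signals of 103 and 178, tbx16 had 65.7 and 162, a bound with the first under the floor, and tbxta, the brachyury gene of tail bud and notochord, had 263 and 379. The lowest of the 5 was tbx16l, with a log2 ratio of 0.19. Also higher were sp5l, a target and mediator of Wnt signalling in this tissue, at 148 and 290.4, and tcf15, a bHLH factor of forming somites, at 203 and 377. The retinoic acid-degrading enzyme gene cyp26a1, which marks the tail bud, had 387 and 688.

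The her, hes, delta and Notch genes of the list showed no common direction. Of 11 such genes above the floor in both arrays, 5 were above 0 and 6 below, with a median of -0.0062. The gene her7 had 17.9 and 109, a bound with the first under the floor. The gene her1 had 39.7 and 64.3, both under the floor. The Notch ligand gene dlc stood highest with 229.9 and 429.9, and its second probe set had 119 and 166. The receptor gene notch1a stood lowest with 346 and 215, and its second probe set had 161 and 90.3, under the floor with control siRNA. The most abundant member, the fringe gene lfng, which modifies Notch, had 4715 and 3599.7.

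Transcription factors that start the muscle programme were mostly higher, whereas most genes of the contractile apparatus were lower. In the list of myogenic regulators, 11 of 17 genes gave a ratio, and 5 of these were at least 1.5-fold higher. The highest of the 5 were tcf15 and tbx6, already given with the tail bud genes. The median of the list was 0.41, or 0.19 with the floor at the 60th percentile. Of the 10 above the floor in both arrays, 9 were above 0, with a median of 0.31. The myogenic bHLH gene myf5 had signals of 149.7 and 245, and myogenin, myog, the most abundant member, had 1272 and 1954. A further bHLH gene, myod1, had a log2 ratio of 0.21, and the MADS-box gene mef2aa, at -0.31, was the single member below 0.

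Of the 62 skeletal muscle genes with a ratio, among 72 on the array, 50 were below 0. By size, 6 were at least 2-fold lower and 0 higher, 21 were at least 1.5-fold lower and 1 higher, and the median was -0.40. It was -0.10 under scaling to the hybridization controls, where all probe sets with a ratio had a median of 0.29. Parvalbumins, the calcium buffers of fast muscle, had the lowest median of the muscle groups, -1.15, with 4 of 4 below 0. The signals of pvalb1 were 5664, 1860.3 and 1039 in the uninjected, control siRNA and PGRP-SC siRNA arrays, 3.04-fold lower with control siRNA than without injection, and those of pvalb3 were 709.7, 264 and 163.

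Among the troponins, which make thin filaments respond to calcium, 6 of 7 were below 0, with a median of -0.48. Fast troponin T, tnnt3b, had signals of 5215, 1778 and 979 in the same order and was 2.93-fold lower with control siRNA. The fast troponin I gene tnni2a.4 had 7083 and 3089 by its stronger probe set and 4740.1 and 3549 by the other, 2.29-fold lower by the first and 1.34-fold lower by the second. The exception was tnnt2c, with 250.0, 427 and 150 in the 3 arrays, the only muscle gene at least 1.5-fold higher with control siRNA.

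Myosin and myosin-binding genes went both ways, 7 of 10 below 0, with a median of -0.29. The abundant fast myosin light chain gene mylpfa had 16807, 7024 and 3430.0 in the 3 arrays, 2.39-fold lower with control siRNA. Its second probe set had 11257, 6665 and 2803, also lower in the injected array. The slow myosin heavy chain gene smyhc1, at 0.086, and the light chain gene myl10, at 0.24, were on the other side of 0.

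Of 18 genes of the Z-disc, the M-band and the sarcomeric scaffold, 16 were below 0, and the median was -0.37. The Z-disc gene myoz1b had a log2 ratio of -1.09, the nebulin gene neb -0.89, and the titin gene ttn.2 -0.62. The enzymes that supply fast muscle with energy were also below 0: muscle phosphoglycerate mutase pgam2 had 3193 and 1822, and the creatine kinase gene ckmb had a log2 ratio of -0.67. Sarcomeric actins and actinins differed less, between -0.39 and 0.12. Of 4 tropomyosin genes, 3 were below 0, with a median of -0.094. Genes that couple excitation to contraction had no common direction, with 3 of 5 above 0 and a median of 0.037. They ranged from casq2 at -0.63 to atp2a2a at 0.50. The most abundant muscle transcript, the actin gene actc1b, had 27637 and 30014 by 1 probe set and 31829.8 and 28749.9 by another, which is close to equality.

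The array maker's acta1 probe sets gave a position-dependent result beside these values. The 3′ probe set had signals of 30281 and 28895, a log2 ratio of -0.068, and the 5′ probe set had 11176 and 5917, a log2 ratio of -0.92. The GAPDH control was higher at every position, with 3437 and 4799 at the 3′ end, a log2 ratio of 0.48. The part of this 5′ to 3′ difference in the muscle values was not tested. Of 10 heart muscle genes with a ratio, 0 reached 1.5-fold, 7 were above 0 and 3 below, and the median was 0.13. The highest log2 ratio was 0.31. The 2 largest differences were among the 3 lower genes. The cardiac myosin light chain gene myl7, the lowest, had 1884 and 1312, and cardiac troponin T, tnnt2a, had 223 and 168.

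**Figure D4:**
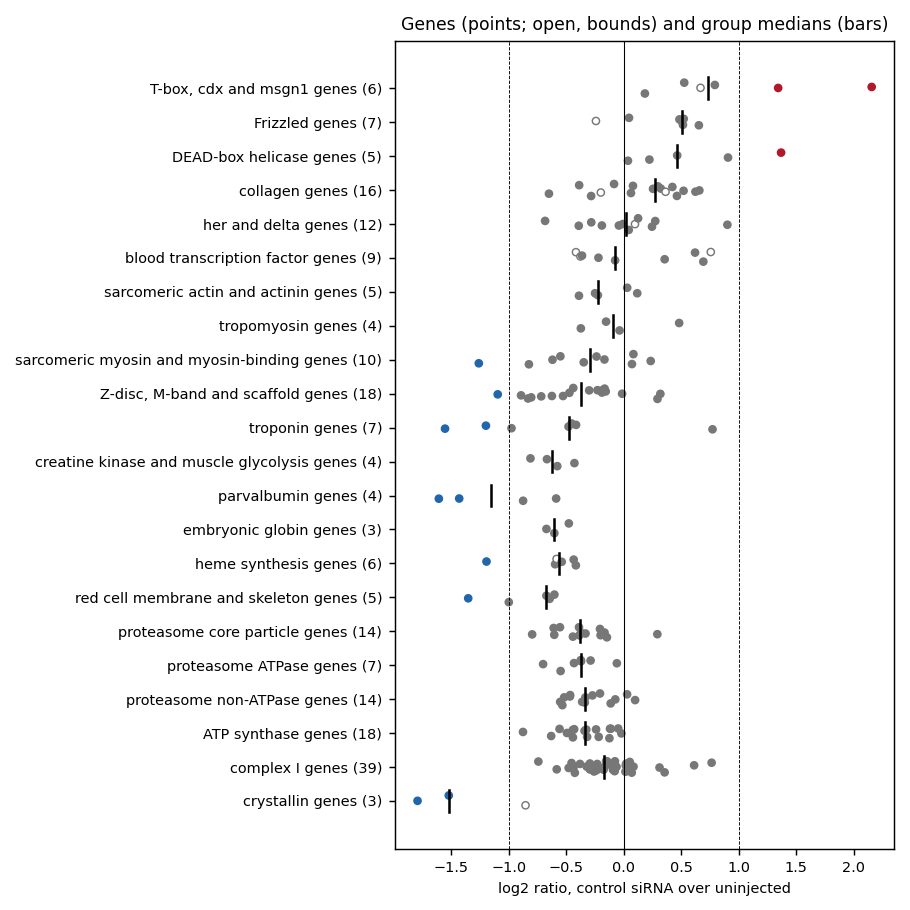
Log2 ratio of control siRNA over uninjected for each gene (point; open where it is a bound, whose direction the floor fixes) of 22 groups, with the group's median over both kinds (bar) and its number of genes in parentheses. Dashed lines mark 2-fold; the 5 T-box, cdx and msgn1 genes above the floor in both arrays lie above 0 and the parvalbumin, globin, heme synthesis and red cell membrane genes below it, while medians between -0.29 and 0, such as that of complex I at -0.17, would turn positive under scaling to hybridization controls.

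Genes that red cells use to make hemoglobin and their membrane were lower in the injected embryos. Of 35 primitive erythrocyte genes with a ratio, 2 were at least 2-fold lower and 0 higher, 10 were at least 1.5-fold lower and 3 higher, and the median was -0.41. All 5 heme synthesis genes above the floor in both arrays were below 0. The first enzyme of the pathway in red cells, encoded by alas2, had signals of 939.9, 411 and 206 in the 3 arrays, 2.28-fold lower with control siRNA. The other 4, uros, urod, cpox and alad, had log2 ratios between -0.60 and -0.41, and fech, which inserts the iron, had 152 and 81.3, a bound with the second under the floor.

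Red cell membrane genes had the same direction in 5 of 5. The membrane skeleton gene epb41b, protein 4.1, had signals of 345 and 135, 2.55-fold lower. The anion exchanger gene slc4a1a had 1393 and 698, just short of 2-fold, and the spectrin gene sptb had a log2 ratio of -0.64. The globin genes hbbe3, hbbe2 and hbae3 had log2 ratios of -0.67, -0.60 and -0.48.

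The transcription factors of the blood lineage were split by 0. The early blood and vessel factors tal1, with 101 and 172, and lmo2, with 186 and 301, were higher, the first as a bound, since its uninjected signal was under the floor. The zinc finger gene znfl2a had 689 and 1060.5. The erythroid factors klf17 and gata1a had log2 ratios of -0.36 and -0.22, smaller in size than 1.5-fold, and klf1 had 132 and 59.2, a bound with the second under the floor. Another such bound was nfe2, with 135 and 39.9, while klf6a had a log2 ratio of -0.073 and drl 0.36. Of the 6 factors above the floor in both arrays, 3 were above 0 and 3 below. The most abundant member of the list, the ferritin gene fth1a, which stores iron in many cells, had 22656 and 19476.

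Vessel and myeloid genes had medians nearer to that of all genes. Of 23 endothelial genes, 0 were past 2-fold and 3 were at least 1.5-fold higher, with a median of 0.17, and tal1 and lmo2 were 2 of those 3. The third was klf2b, a transcription factor responsive to blood flow, with 148 and 234. The most abundant member, the receptor gene s1pr1, had 923 and 851. Among 27 myeloid genes, 0 were at least 2-fold higher and 1 lower, 6 and 4 reached 1.5-fold, and the median was -0.14. Of 22 above the floor in both arrays, 9 were above 0 and 13 below. The lowest was the Arp2/3 subunit gene arpc1b, with 394 and 179. The annexin gene anxa1a had 4038 and 6777 and the protease gene ctsc 1698 and 2765, while the plastin gene lcp1, a leukocyte actin-bundling protein, had 335 and 182.

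Ectodermal derivatives held some of the largest single differences. Of 58 epidermis and periderm genes measured, 3 were at least 2-fold higher and 4 lower, 7 and 5 reached 1.5-fold, and the median was 0.088. The keratin gene krt99 had signals of 419 and 1279, 3.06-fold higher, and krt1-19e, another keratin, had a log2 ratio of -1.03, with -1.96 by its second probe set. The 15 keratin genes had a median of -0.046, and the most abundant, krt4, had 23079.6 and 21605. The S100 gene s100w had 373 and 71.8, under the floor with control siRNA, a bound of at least 3.67-fold lower. The annexin gene anxa1d had 159 and 335, and its second probe set 185 and 256.

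Genes of the hatching gland list were lower, as were 3 pigment cell genes, the lowest of another list that had no common direction. The disulfide isomerase gene agr2, expressed in secretory cells and also held by the epidermis and periderm list, had 1028 and 315, 3.26-fold lower. All 6 hatching gland genes lay below 0, 1 of them past 2-fold and 2 past 1.5-fold, with a median of -0.28 that turned to 0.0024 under scaling to the hybridization controls. Besides agr2, the gene past 1.5-fold was the cathepsin gene ctsba, also used by macrophages, with 8442 and 4415. The hatching enzyme gene he1.1, one of the planned markers, was not found by name. In the list of neural crest and pigment cells, 26 of 36 genes gave a ratio, 1 was at least 2-fold lower, 0 were at least 1.5-fold higher and 3 lower, and the median was 0.069. Those 3 were genes of pigment cells: gch2, of pteridine synthesis, had 2196 and 1012, dct, of melanin synthesis, 1124 and 609, and mitfa, the transcription factor of the melanophore lineage, 258 and 168. A second gch2 probe set had 396 and 228. Most other crest genes were near equality, and of 25 genes of the list above the floor in both arrays, 15 were above 0 and 10 below. The most abundant, the purine synthesis gene paics, had 11648 and 12684.

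The lens list rested on few genes, 8 with a ratio of 30 on the array, with a median of -0.077. That median was -0.82 over the 4 genes above the floor in both arrays and 0.16 under scaling to the hybridization controls. Of 11 lens crystallins on the array, 2 were above the floor in both arrays, 1 gave a bound and 8 were under the floor in both. Beta crystallin crybb1 had signals of 672 and 194, 3.46-fold lower, and cryba4 had 412 and 144, 2.87-fold lower. The gamma crystallin gene crygmxl2 had 184 and 57.3, the bound, with the second under the floor. In the opposite direction stood rbp4l, a retinol-binding protein gene, with 1595 and 2673.

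Neuronal genes were lower as a list, by less than muscle or blood genes. Of 50 with a ratio, among 75 on the array, 1 was at least 2-fold lower and 0 higher, 7 were at least 1.5-fold lower and 0 higher, and the median of -0.24 turned to 0.049 under scaling to the hybridization controls. Of 48 above the floor in both arrays, 36 were below 0. The synaptic vesicle gene syt1a had 355 and 177, the neuronal tubulin gene tuba1b had 5172 and 2882, with 3215 and 2068 by its second probe set, and the reticulon gene rtn1b had 771 and 446. The most abundant member, rtn1a, had 3461 and 4096. Neural progenitor and glial genes had a median of 0.011 over 33 genes, with 1 at least 2-fold higher, 1 at least 2-fold lower, 2 at least 1.5-fold higher and 4 lower. The SoxB1 factor sox19a, of the neural plate, had 1140.3, 2903 and 1684 in the 3 arrays, 2.55-fold higher with control siRNA. The radial glial fatty acid-binding protein gene fabp7a had 2012, 817 and 224 in the 3 arrays, 2.46-fold lower with control siRNA. The proneural gene ascl1b had 1138 and 712.

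Regional genes of the neural tube lay on both sides of 0, with single members past 1.5-fold. Of 58 genes of brain, hindbrain and otic patterning, 0 reached 2-fold, 7 were at least 1.5-fold higher and 2 lower, and the median was 0.18. Of the 48 above the floor in both arrays, 32 were above 0 and 16 below. The homeobox gene irx7 had 147 and 292, the hindbrain segment gene egr2b 223 and 409.5, and the forebrain gene six3b 181 and 336. The otolith matrix gene otomp had 347 and 209.8, the lowest of the list. The 33 Hox genes had a median of 0.040, with 2 at least 1.5-fold higher and 0 lower, and of 29 above the floor in both arrays 19 were above 0 and 10 below. Those 2 were hoxa11b, with 199 and 315, and hoxb8b, with 107 and 169, and the most abundant, hoxc8a, was equal at 1879 and 1880.4.

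Notochord and floor plate genes were mostly higher. Of 22 above the floor in both arrays, 19 were above 0. Among 24 with a ratio, 0 reached 2-fold, 5 were at least 1.5-fold higher and 1 lower, and the median was 0.24. The laminin gene lamb1a, of the notochord sheath, had 1448 and 2587, and noto, a homeobox gene of notochord precursors, had 86.4 and 183, the first under the floor. The notochord gene ntd5 had 864 and 1603. The chondromodulin gene cnmd differed by probe set, with 319 and 569 in the stronger and 141 and 590.0 in the weaker. The most abundant member, the type II collagen gene col2a1a, had 4330.4 and 4528.

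Of 49 extracellular matrix genes, 0 reached 2-fold, 9 were at least 1.5-fold higher and 4 lower, with a median of 0.10. The 42 above the floor in both arrays had 28 above 0 and 14 below, with a median of 0.23. Of 14 collagen genes above the floor in both arrays, 10 were above 0 and 4 below, with a median of 0.28. The collagens past 1.5-fold were col9a1b and col15a1a, at 0.66 and 0.63, and the type I chain col1a1a, at -0.65. The fibronectin gene fn1b had 424 and 836, and itga5, a subunit of the fibronectin receptor, had 126 and 221. Tenascin N, tnn, had 682 and 389, with 374 and 280.1 by its second probe set, and the cartilage matrix gene matn4 had 718 and 457.

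Among the signalling pathways, Wnt, BMP and Hedgehog genes had medians above that of all genes, with few members past 2-fold. In the Wnt list, 41 of 55 genes gave a ratio, 0 reached 2-fold, 7 were at least 1.5-fold higher and 0 lower, and the median was 0.21. The highest of the list, sp5l, was given with the tail bud genes. Of the ligands, wnt11 had 361 and 617, and 7 of 10 ligand genes on the array gave no ratio. All 6 Frizzled receptor genes above the floor in both arrays were above 0 by their strongest probe set, with a median of 0.51, and fzd9b, at 0.66, was the single one past 1.5-fold. Second probe sets of 4 of these were near or below 0: that of fzd9b was at -0.25, fzd10 at -0.051, fzd8a at 0.025 and fzd7b at 0.035. The transducer gene ctnnb1, encoding beta-catenin, had 7861 and 7584. The direct targets axin2 and lef1 had log2 ratios of 0.099 and 0.31, within 1.5-fold, and the secreted factor gene dkk3b had 71.2 and 169, the first under the floor.

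Of 45 genes of the BMP, TGF-beta and activin pathways, 2 were at least 2-fold higher and 0 lower, 6 and 1 reached 1.5-fold, and the median was 0.21. The follistatin-like gene fstl1b had signals of 93.0, 477 and 109 in the 3 arrays, so it was high in the control siRNA array alone, a bound of at least 4.70-fold higher. The Nodal coreceptor gene tdgf1 had 209.8 and 503, past 2-fold. The Nodal inhibitor gene lft2, lefty2, had 72.6 and 195, the first under the floor. The BMP ligand genes bmp2b and bmp4 had log2 ratios of -0.12 and 0.11, and the transducer gene smad3a had 153 and 58.3, the second under the floor. All 5 Id genes, which are BMP targets, were above 0, between 0.10 for id4 and 0.36 for id2a, and the most abundant, id1, had 7265 and 9062.

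Of 17 Hedgehog pathway genes above the floor in both arrays, 14 were above 0. The 18 with a ratio had a median of 0.31, 0 past 2-fold, 1 at least 1.5-fold higher and 0 lower. That 1 was the coreceptor gene boc, with 634 and 953, whose second probe set had 488 and 527. The ligand gene shha had a log2 ratio of -0.16, the Smoothened gene smo 0.27, and the decoy receptor gene hhip, the most abundant, had 765 and 1015. In the retinoic acid list, 23 of 29 genes gave a ratio, 1 was at least 2-fold higher, 5 were at least 1.5-fold higher and 0 lower, and the median was 0.21, or 0.062 with a pseudocount of 100 in place of the floor. The retinal reductase gene dhrs3a had 109 and 231 and the carotenoid-cleaving enzyme gene bco1 167 and 294. Another of the 5 higher genes was cyp26a1, given with the tail bud genes. The synthetic enzyme gene aldh1a2 had a log2 ratio of -0.13 and the nuclear receptor gene nr2f5 had 3367 and 4133.

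The Notch and FGF lists had medians nearer to that of all genes. Of 34 Notch pathway genes, 1 was at least 2-fold higher, 5 were at least 1.5-fold higher and 2 lower, with a median of 0.10. The feedback inhibitor gene nrarpb had 118 and 247, 2.08-fold higher, though 3 weaker probe sets of it were under the floor in both arrays. The effector gene hey1 had 221 and 393. This list also holds dlc, among the higher genes, and notch1a, its lowest, both given with the tail bud genes. Of 28 FGF and MAP kinase genes, 1 was at least 1.5-fold higher and 1 lower, with a median of 0.015. They were the adaptor paralogues grb2b, with 143 and 227, and grb2a, with 204 and 105, which differed in opposite directions. The receptor gene fgfr4, the most abundant, had 2283 and 2445, and the ligand gene fgf8a had a log2 ratio of 0.41.

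Genes of ribosome assembly in the nucleolus were higher as a list. Of 68 with a ratio, 55 were above 0, 2 were at least 2-fold higher and 0 lower, 7 were at least 1.5-fold higher and 0 lower, and the median was 0.23. The DEAD-box helicase gene ddx52, whose yeast counterpart acts in processing of ribosomal RNA, had signals of 185 and 477, 2.58-fold higher. The assembly factor gene rrs1 had 444 and 921, and the helicase gene ddx21 had 2984 and 5602. The nucleolin gene ncl, the most abundant, had 6813 and 9367. All 5 DEAD-box genes and all 5 RNA polymerase I genes of the list were above 0, the latter with a median of 0.23.

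The ribosomal protein genes themselves lay close to the median of all genes. None of the 75 genes for cytosolic ribosomal proteins reached 1.5-fold, and their log2 ratios had a median of 0.0030 and a range from -0.34 to 0.36. The highest was rps3a, with 21324 and 27356, and the most abundant, rps2, had 40018 and 36006. The 59 mitochondrial ribosomal protein genes had a median of 0.026, with 2 at least 1.5-fold higher, mrps18b at 509 and 787 and mrpl19 at 368 and 555. Second probe sets of both were within 1.5-fold, at 0.14 and -0.099.

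Of 69 translation factor genes, 3 were at least 1.5-fold higher and 2 lower, with a median of 0.019. The kinase gene eif2ak3, PERK, which phosphorylates eIF2 under stress of the endoplasmic reticulum (ER), had 133 and 212, and the initiation factor gene eif2a had 807 and 1283. The kinase gene eef2k, which inhibits elongation, had 935 and 514. The most abundant member, the elongation factor gene eef1a1l1, had 26484 and 28082. Of 20 aminoacyl-tRNA synthetase genes, 1 was at least 1.5-fold lower, wars1 for tryptophan with 782 and 434, and the median was -0.14. Of 97 splicing factor and RNP genes, 3 were at least 1.5-fold higher and 1 lower, with a median of 0.013. The U2 snRNP gene sf3b5 had 788 and 1341, and lsm6, of the Lsm ring, had 1587 and 1011.

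Proteasome genes were lower across the subcomplexes, each by a small amount. Of 44 genes on the list with a ratio, 34 were below 0, 0 reached 2-fold, 4 were at least 1.5-fold lower and 0 higher, and the median was -0.33. The list was matched by name pattern and also holds genes that are no subunits. In the core particle, which cleaves proteins, 13 of 14 genes were below 0, with a median of -0.38. The core subunit gene psmb3 had signals of 6019.8 and 3469.9, and the catalytic subunit gene psmb5 had 1459 and 957. All 7 ATPase genes of the regulatory particle were below 0, with psmc3 lowest at 4809.7 and 2962, and 12 of 14 non-ATPase genes were, with a median of -0.33. No single subunit differed by as much as the 95% range of all probe sets, 1.71-fold, except psmb3, at 1.73-fold lower. For signals over 3200 that range was narrower, 1.52-fold, and psmc3, with a log2 ratio of -0.70, also lay beyond it.

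Ubiquitin enzymes and chaperones had no such common direction. Of 74 genes of ubiquitin conjugation and removal, 3 were at least 1.5-fold higher and 6 lower, with a median of -0.066. The deubiquitinase gene usp37 had 322 and 541, and usp13 had 1027 and 568. The polyubiquitin gene ubb, the most abundant, had 11456 and 10421. Of 59 heat shock and cytosolic chaperone genes, 2 were at least 2-fold higher and 1 lower, 3 and 5 reached 1.5-fold, and the median was -0.056. The mitochondrial HSP90 gene trap1 had 180.4, 439.7 and 163 in the 3 arrays, so that the control siRNA array stood alone, and the HSP40 gene dnajb1b had 477 and 968. The cochaperone gene bag2 had 269 and 109.7, and hspa8, the constitutive HSP70 gene, 20909 and 19264.

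Genes of mitochondrial respiration were lower by small amounts, with the sign turned under scaling to the hybridization controls. Of 90 oxidative phosphorylation genes above the floor in both arrays, 71 were below 0. Of the 92 with a ratio, 0 reached 2-fold, 3 were at least 1.5-fold higher and 4 lower, and the median was -0.17. ATP synthase stood lowest of the complexes, with 18 of 18 genes below 0 and a median of -0.33. Its membrane ring gene atp5mc1 had 9962 and 5433, and the paralogue atp5mc3b had 13704 and 13269. Complex I genes had a median of -0.17, complex II -0.069, complex III -0.15 and complex IV -0.12. The 3 genes at least 1.5-fold higher, ndufaf8 with 134 and 228, ndufaf5 with 218 and 334 and cox15 with 199 and 327, encode assembly or cofactor factors and not subunits. Other assembly genes lay on both sides of 0, such as ndufaf6 at -0.25 and surf1 at -0.24 against cox11 at 0.40.

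The TCA cycle and fatty acid oxidation list had 10 genes at least 1.5-fold lower and 0 higher among 50, 1 at least 2-fold lower, and a median of -0.19, which was 0.085 under scaling to the hybridization controls. The cytosolic malate dehydrogenase gene mdh1ab had 1988 and 984, just past 2-fold, while its paralogue mdh1aa, the most abundant, had 9727 and 8910.2, with 3193 and 3754 by its second probe set. The carnitine palmitoyltransferase gene cpt2 had 211 and 113. Among the 41 genes of the carrier and import list, which does not hold the uncoupling protein gene ucp3 described further on, 1 was at least 2-fold lower and 0 others reached 1.5-fold, with a median of 0.0042. That gene, the ADP/ATP carrier slc25a4, had the lowest ratio of the named genes above the floor in both arrays, with 679, 139 and 89.1 in the 3 arrays. It was 4.88-fold lower with control siRNA, and the phosphate carrier slc25a3b, the most abundant, was equal at 10083 and 10121.

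Of 45 genes of glycolysis, gluconeogenesis and glycogen, 3 were at least 1.5-fold higher and 5 lower, with a median of 0.0012. The higher genes were the glucose transporter gene slc2a10, with 262 and 523, just short of 2-fold, and the glycogen-targeting phosphatase subunits ppp1r3ca, with 297 and 514, and ppp1r3b, with 1064 and 1781. The muscle glycogen phosphorylase gene pygmb was lower in both probe sets, with 2096 and 1141 and 584 and 301. The aldolase gene aldoaa, the most abundant, had 9666 and 12401.

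Injection delivers double-stranded RNA, and the genes that handle it were examined as a group. Of 22 siRNA and microRNA machinery genes, 0 reached 2-fold, 2 were at least 1.5-fold higher and 0 lower, with a median of 0.030. They were the exonuclease gene xrn2, with 487 and 811, and the translin gene tsn, with 513 and 809, whose other probe sets had 0.15 and 0.017. The processing enzyme genes dicer1 and drosha had log2 ratios of 0.47 and 0.47, and dgcr8, whose product is the partner of Drosha in microRNA processing, -0.12. The nuclease gene snd1, the most abundant, had 3041 and 3916, with 267 and 259 by its second probe set.

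Interferon and pattern recognition genes gave few values. Of 31 interferon and double-stranded RNA response genes on the array, 10 gave a ratio and 21 were under the floor in both arrays. None of those 10 reached 1.5-fold, and the median was 0.10. The highest of the 10 was ptges3b, with a log2 ratio of 0.52. The kinase gene tbk1, which activates interferon factors, had 118 and 160.1, and ifi30a, the most abundant, had 1255 and 1488. Of 16 Toll-like receptor and NF-kB genes, 1 was at least 1.5-fold higher and 0 lower, with a median of 0.13. That 1 was irak1bp1, with 182 and 304 and 126 and 192 by its 2 probe sets. The NF-kB inhibitor gene nfkbiaa, itself an NF-kB target, had a log2 ratio of 0.17.

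Genes of inflammation and wounding went both ways. Of 41, 1 was at least 2-fold higher and 1 lower, 5 and 5 reached 1.5-fold, and the median was 0.014. The 33 above the floor in both arrays had 21 above 0 and 12 below, with a median of 0.17. The complement inhibitor gene serping1 had 136 and 289, 2.12-fold higher. The AP-1 genes junba and fosl2, of the immediate response to wounding, had 221 and 91.6 and 244 and 138, the junba signal with control siRNA under the floor. The fibrinogen gene fga had 802 and 415, and anxa1a, described with the myeloid genes, was the most abundant member.

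Stress and damage responses were checked in the same way. Of 30 p53 target and growth arrest genes, 1 was at least 2-fold higher, 3 were at least 1.5-fold higher and 0 lower, and the median was -0.051. The p53-inducible ribonucleotide reductase gene rrm2b had signals of 186 and 423, 2.28-fold higher, and the sestrin gene sesn3 had 2722 and 4959.8. The main feedback target mdm2 had a log2 ratio of 0.018 and the target ccng1 0.10. Of 25 apoptosis genes, 1 was at least 2-fold higher, which was also the single one past 1.5-fold upward, and 1 was at least 1.5-fold lower, and the median was -0.0073. The higher gene was diabloa, a mitochondrial antagonist of caspase inhibitors, with 176 and 420.2, and the lower was the apoptosome gene apaf1, with 209 and 135, whose second probe set went the other way with 86.2 and 138.

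The hypoxia list held egln3, one of the 25 highest named genes above the floor in both arrays. Of its 16 genes, 2 were at least 2-fold higher and 0 lower, 4 and 1 reached 1.5-fold, and the median was 0.17. The prolyl hydroxylase gene egln3, a target and regulator of HIF, had 178 and 553, and the PGRP-SC siRNA array had 1448. The stress gene ndrg1a had 181 and 375 and the mTOR inhibitor gene ddit4 142 and 247. The bHLH repressor gene bhlhe41 had 166 and 81.5, the second under the floor. Among other HIF targets, vegfaa had a log2 ratio of 0.33 and higd1a -0.11.

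ER stress and oxidative stress genes were mixed or slightly lower. Of 36 genes of ER chaperones and the unfolded protein response, 1 was at least 2-fold higher, 3 were at least 1.5-fold higher and 3 lower, with a median of -0.091. The phosphatase subunit gene ppp1r15a, which reverses the eIF2 phosphorylation made by PERK, had 168 and 444, 2.65-fold higher. Its other probe sets above the floor had log2 ratios of 0.82 and 0.32. The chaperone gene calr, calreticulin, had 719 and 419, and its second probe set 172 and 197. Of 40 oxidative stress and detoxification genes, 1 was at least 2-fold lower, 1 was at least 1.5-fold higher and 7 lower, and the median was -0.14, or 0.14 under scaling to the hybridization controls. The glutathione transferase gene gsto2 had 587 and 274 and the mitochondrial superoxide dismutase gene sod2 179.7 and 73.2, the second under the floor.

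Most genes of the cytochrome P450 and steroid metabolism list were too dim to read, and the list median depended on the setting. Of 63 on the array, 21 gave a ratio, 1 was at least 2-fold higher, 6 were at least 1.5-fold higher and 0 lower, and the median was 0.24. It was 0.014 with a pseudocount of 100 in place of the floor, near that of all genes. The side chain cleavage gene cyp11a1.1, which starts steroid synthesis, had 235, 537 and 2215 in the 3 arrays, 2.28-fold higher with control siRNA. The dioxin-inducible gene cyp1a had 459 and 698. The electron donor gene fdx1, the most abundant, had 1350.3 and 1027. Of 18 cholesterol and sterol genes, 1 was at least 1.5-fold higher and 1 lower, with a median of -0.16 whose sign turned with the floor at the 20th or 60th percentile and under scaling to the hybridization controls. The sterol sensor gene insig1 was higher in 3 of 3 probe sets, with 351 and 593, 123 and 207 and 107 and 194.

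Catabolic genes included the highest ratio of all named genes. The urate oxidase gene uox, a peroxisomal enzyme that degrades urate, had signals of 213, 1073 and 1881 in the 3 arrays, 5.04-fold higher with control siRNA, and has 1 probe set. Of 47 genes of amino acid, urate and peroxisomal catabolism, 2 were at least 2-fold higher and 0 lower, 5 and 5 reached 1.5-fold, and the median was 0.0099. The mitochondrial serine hydroxymethyltransferase gene shmt2 had 485 and 1064 and gldc, of the glycine cleavage system, 578 and 1142. The D-amino acid oxidase gene dao.1 had 3000.1, 1646 and 199 in the 3 arrays. The betaine-homocysteine methyltransferase gene bhmt, the most abundant, had 29081 and 27552.

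Of 51 genes of the yolk syncytial layer, liver and endoderm, 1 was at least 2-fold higher and 1 lower, 2 and 4 reached 1.5-fold, and the median was 0.061. The higher was uox. The lower was the apolipoprotein gene apoea, with 4211 and 1898, 2.22-fold lower, while its paralogue apoeb had 13147 and 13714. The abundant yolk gene afp4 was equal at 22619 and 22658. Of 16 maternal and germ cell genes, 1 was at least 2-fold higher, which was the linker histone gene h1-10 with 194 and 476, and 1 was at least 1.5-fold lower, the germ plasm gene dnd1 with 313 and 207. Their median was 0.00075, or 0.20 over the 12 above the floor in both arrays.

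Transporters showed differences in both directions. Of 88 solute carrier genes, 3 were at least 2-fold higher and 2 lower, 12 and 8 reached 1.5-fold, and the median was 0.0054. The amino acid transporter gene slc38a8b had 142 and 350.4, slc26a5, which encodes the prestin motor protein in mammalian hair cells, had 274 and 675, and the zinc transporter gene slc39a13 had 124 and 251. The sugar transporter gene slc2a15b had 421 and 199. Of 27 pronephros and ion transport genes, 0 were at least 1.5-fold higher and 2 lower, with a median of -0.13. Both were sodium pump subunits, atp1a1a.2 with 1467 and 907 and atp1b1b with 1178 and 761.

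Of 147 vesicle traffic genes, 1 was at least 2-fold higher and 1 lower, 5 and 9 reached 1.5-fold, and the median was -0.065. The Golgi SNARE gene stx5al had 266 and 557, but its second probe set had 116 and 122. The tethering complex gene trappc4 had 354 and 146, and the synaptic vesicle gene rab3c 245 and 136. Of 44 tubulin, kinesin and dynein genes above the floor in both arrays, 34 were below 0. The 46 with a ratio had 1 at least 2-fold higher, which was the only one past 1.5-fold upward, 3 at least 1.5-fold lower and a median of -0.17, or 0.12 under scaling to the hybridization controls. The higher gene was the mitotic kinesin gene kif20a, with 1294 and 2731, whose second probe set went the other way with 385 and 291. The most abundant, the tubulin gene tuba8l4, had 15544 and 15249.

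Of 59 actin cytoskeleton genes, 1 was at least 2-fold higher and 2 lower, 2 and 3 reached 1.5-fold, and the median was 0.0068. The dynactin subunit gene actr10 had 145 and 328. The thymosin gene tmsb, which binds actin monomers, had 4704 and 2301, and the Arp2/3 subunit gene arpc1b 394 and 179. The related thymosin tmsb4x, the most abundant, had 19604 and 16542.

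Proliferation genes were close to equality. Of 110 cell cycle and DNA replication genes, 2 were at least 2-fold higher and 0 lower, 4 and 5 reached 1.5-fold, and the median was -0.069. The condensin gene ncaph had 205 and 535, 2.62-fold higher, but another of its probe sets had 217 and 173. The replication kinase gene cdc7 had 169 and 302 and the dUTPase gene dut 5553 and 3347. The sliding clamp gene pcna had 17418 and 15886. None of 57 histone and chromatin genes reached 1.5-fold, and their median was -0.0028, with the abundant hmga1a at 21062 and 18065. Of 19 circadian clock genes, 1 was at least 1.5-fold higher and 2 lower, with a median of 0.022, and the light-induced cryptochrome gene cry5 had 197 and 103, against 143 and 149.6 by its second probe set. None of 16 hormone and growth factor genes reached 1.5-fold, and their median was -0.12.

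Ranked over all named genes above the floor in both arrays, the 25 highest and the 25 lowest were of mixed function. Of the 25 highest, 15 were named above: uox, msgn1, egln3, krt99, ppp1r15a, ncaph, ddx52, sox19a, cdx4, slc38a8b, slc26a5, h1-10, trap1, tdgf1 and diabloa. The phosphatase gene ppm1h had signals of 189.7, 739 and 1995 in the 3 arrays, 3.90-fold higher with control siRNA. The plasminogen gene plg, of blood clot lysis, had 319 and 817, and its second probe set 629 and 758. The selenoprotein P family gene selenop2 had 323 and 822 and the surface glycoprotein gene thy1 747 and 1839.6. The ribosomal RNA methyltransferase gene bud23 had 261 and 629.6. The gene lin54, a DNA-binding subunit of the cell cycle DREAM complex in mammals, had 179, 416 and 163 in the 3 arrays, and cdpf1 had 254, 582 and 334, with 311, 418 and 318 by another probe set, so in both genes the control siRNA array was highest. For ccdc102a, 2 probe sets above the floor were both higher, with 184 and 512 and 229 and 383. The BNIP3 family gene bnip4 had 102 and 246 and ypel3 had 194 and 467.

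**Figure D5:**
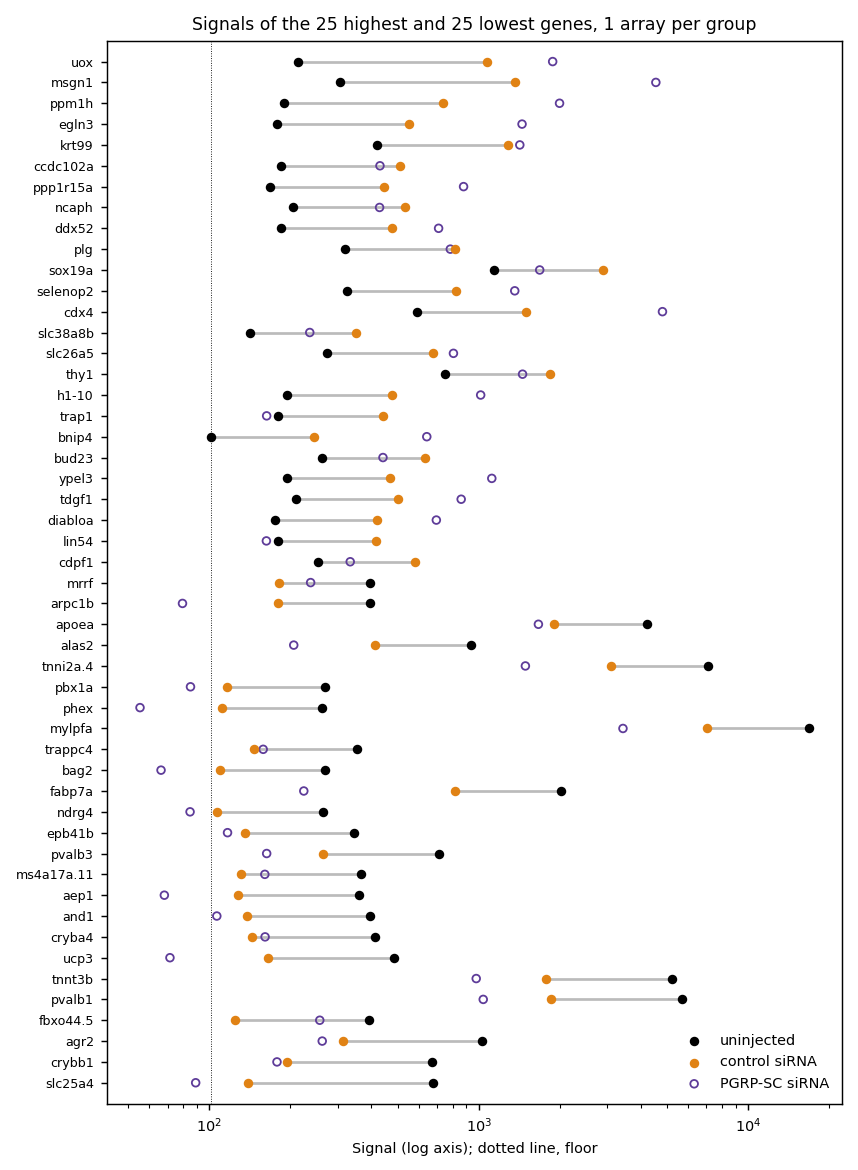
Signals (horizontal, log axis) of the 25 highest and 25 lowest named genes above the floor in both arrays, ranked by log2 ratio, with the floor as a dotted line. Black points are uninjected, orange control siRNA and open purple PGRP-SC siRNA, 1 array each; uox is 5.04-fold higher and slc25a4 4.88-fold lower with control siRNA.

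The 25 lowest began with slc25a4, crybb1 and agr2. The uncoupling protein gene ucp3, a mitochondrial carrier, had 484 and 166, 2.93-fold lower, and the actinodin gene and1, of the fin fold fibres, had 393 and 139, 2.84-fold lower. The F-box gene fbxo44.5 had 390.2, 125 and 257 in the 3 arrays, and the aerolysin-like gene aep1 had 361 and 128 in the 2 compared. The membrane protein gene ms4a17a.11 had 365 and 132, ndrg4 had 265 and 106, and phex, a peptidase that controls phosphate balance in mammals, had 262 and 111. The homeobox gene pbx1a, a partner of Hox proteins, had 269 and 116, and the mitochondrial ribosome recycling gene mrrf 394 and 181. Muscle accounted for 5 of the 25 (pvalb1, tnnt3b, pvalb3, mylpfa and tnni2a.4), red cells for 2 (epb41b and alas2) and the lens for 2 (crybb1 and cryba4). The skeletal muscle, primitive erythrocyte and lens lists held 62, 30 and 4 of the 5986 named genes above the floor in both arrays. The values of fabp7a, bag2, trappc4, apoea and arpc1b were given with their lists.

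Genes under the floor in 1 array gave bounds, and fstl1b, given above, had the largest. Among the others higher with control siRNA, swi5, of homologous recombination, had signals of 53.5 and 368, a bound of at least 3.62-fold higher. The complement gene c7b, of the membrane attack complex, had 60.8 and 315, and the calpain gene capn8 91.2 and 305. The tRNA processing gene elac1 had 94.5 and 238, the carbonic anhydrase-related gene ca8 71.2 and 235, and the egg coat gene zp2.6 90.5 and 213. The remaining ones, dnaaf10, haus5 and carhsp1, had 241, 223 and 219.7 with control siRNA. Among those lower, spryd7b had 243 and 79.1, a bound of at least 2.39-fold lower, and the dysbindin gene dtnbp1a, of organelle biogenesis, had 209 and 76.6. The skeletal transcription factor gene runx2a had 195 and 76.2, the lysosomal gene cln3 189.7 and 97.4, the ferroxidase gene cp, ceruloplasmin, 185 and 96.2, and the aminotransferase gene got2a 184 and 95.2. For pbldp the signals were 213 and 74.6, and s100w, junba and crygmxl2 were given above.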

How the data were processed

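Total RNA was extracted with Trizol and biotin-labelled cRNA was hybridised to 1-colour Affymetrix arrays, per the labels' protocols. The deposited values are linear signal intensities, 1 for each probe set on each array, made with GCOS 1.4 per the submitters' processing notes, with no settings named in the sources used here. They carry a global scaling, which hides any difference in total RNA. Each of the 3 groups had 1 array (1 pool of 400 embryos), and no test was possible. Each array had a 2% trimmed mean of 500.1.

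Gene names came from the platform annotation, with 1 gene for 10795 probe sets and several for 135, and 4572 are unnamed here; symbols were current in the reference gene table for 10710 and updated for 1. A floor at the 40th percentile of all signals (101.6) replaced lower ones, log2 ratios were taken of the control siRNA over the uninjected intensity, and genes were counted at 2-fold and 1.5-fold. Each gene was read from its strongest probe set by mean signal over the 3 arrays. Of 3079 list symbols, 67 had no match. The members and lists were chosen with earlier results of these data known, and the subgroups, 2 alternatives and the counts without bounds after the values were seen. Genes were named by rule: the 25 highest and 25 lowest without clone names, the 10 largest bounds each way, up to 3 highest and 3 lowest past 1.5-fold per list (2 where none passed), the most abundant member, and their other probe sets. Not all genes drawn by this rule are printed. Other genes of a named subgroup or pathway step were added after their values were seen. The computation used Python 3.11.15, numpy 2.4.6, pandas 2.3.3, R 4.3.3 and limma 3.58.1 (quantile and cyclic loess alternatives), and was checked on simulated data. Other scalings, floors, a pseudocount and other probe set rules were tried. No sequences are shown, and promoter motifs were not analysed here.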

Additional observations from a re-analysis of the deposited data

How the results depend on the processing

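The counts of probe sets at least 2-fold apart, 108 higher and 83 lower, depended on the floor and on 1 scaling. Without a floor they were 1086 and 1219, a floor at the 20th percentile gave 242 and 252 and one at the 60th 40 and 38, a pseudocount of 100 gave 43 and 33, and 360 and 33 with scaling to the hybridization controls, an alternative chosen after seeing the data. Median scaling gave 96 and 90, quantile normalization 102 and 90, cyclic loess 98 and 89, the 2% trimmed mean 108 and 84, a floor from the 2 arrays compared 107 and 83, and probe sets above the floor in both arrays 83 and 74. Of 767 recomputed list medians, 698 stayed within 0.2 on the log2 scale of the value given, 67 moved by more (56 of them under scaling to the hybridization controls), and 2 changed sign after a call at that size: neurons at 0.0489 and hatching gland at 0.0024, both under that scaling. Of 2729 recomputed ratios of named genes, 2313 stayed within 0.27 of the value given. Where the value given was at least 1.5-fold, 0 changed sign. Smaller ratios did, such as that of ctnnb1, from -0.052 to 0.23 under scaling to the hybridization controls. The count of 0 was largely fixed in advance and does not measure robustness. Floors and the pseudocount can shrink a ratio but not reverse it, as for bag2, which went from -1.30 to as little as -0.00015. Scaling to the hybridization controls shifts a ratio by 0.29, which is less than 1.5-fold. No paired analysis was possible because each group had 1 array. Dim signals limit the interferon, cytochrome P450 and steroid metabolism, lens and ligand genes, and 5703 of 15502 probe sets gave no ratio at all. The description of promoter motifs was not run, since no sequence table was given. The cause of the lower hybridization controls was not tested.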

Other observations

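Among probe sets that are unnamed here, 2 chosen after their values were seen had the largest differences of the comparison. The first had signals of 22.2, 3249 and 14659.6 in the uninjected, control siRNA and PGRP-SC siRNA arrays, under the floor without injection alone. The second had 2163, 28.1 and 3996 in the same order, under the floor with control siRNA alone.

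Weak probe sets of abundant genes gave 2 further differences that stronger probe sets of the same gene did not share, also chosen after their values were seen. For wls, which carries Wnt ligands to the cell surface, 1 probe set had 2.48, 526 and 0.856 in the 3 arrays, while the strongest had 3548, 3467 and 4628. For copb2, a subunit of the COPI vesicle coat, 1 probe set had 82.4, 532 and 1001, while the strongest had 1092, 1359 and 1289.8.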
